A study of Mus musculus with 6 samples.

Results

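Haemoglobin transcripts were followed in the hearts of single mice through 5 genes of the 54232 gene rows in the count files. The genes were Hba-a1 and Hba-a2, which encode the adult alpha globin chain, Hbb-bs and Hbb-bt, which encode the adult beta globin chain, and Alas2, the erythroid enzyme for the first step of haem synthesis. They were chosen by name, and each symbol was matched to 1 Ensembl gene in the GENCODE M21 annotation. The samples were heart ventricle of WT C57BL/6J mice on a western diet (WD), and every mouse of both groups had received the diet for 15 weeks before treatment. WD + Tributyrin mice (n = 3) were then needle-fed Tributyrin, a triglyceride that releases butyrate, at 5 g/kg body weight, 2 days on and 2 days off, for 3 weeks, and WD + Vehicle mice (n = 3) received vehicle, given as PBS in the labels. No chow-fed or untreated group was among the samples, so each comparison is within western diet. The age of the mice is not given in the labels. The study used mice of both sexes, and here the Y-linked transcript Ddx3y was read in all 6 libraries while Xist had 14 counts in all.

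Haemoglobin is a tetramer of alpha and beta globin chains, each holding a haem group that binds oxygen. Its genes are transcribed at a very high rate in nucleated red cell precursors of the bone marrow and spleen, together with the enzymes of haem synthesis, and the transcripts persist for a time in reticulocytes, the young red cells of the blood, after the nucleus is lost. RNA of a blood-filled organ such as the heart therefore usually holds some globin transcript, whether or not cells of the organ make any. Whether the hearts were flushed of blood before RNA extraction is not stated in the study's methods. In bulk RNA, a difference in the number of cells of a type and a difference in RNA per cell cannot be told apart.

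On mm10, Hba-a1 (ENSMUSG00000069919) lies on the plus strand at chr11:32283511-32284465 and Hba-a2 (ENSMUSG00000069917) on the same strand at chr11:32296489-32297298. Hbb-bs (ENSMUSG00000052305) lies on the minus strand at chr7:103826534-103828096 and Hbb-bt (ENSMUSG00000073940) on the minus strand at chr7:103812524-103813996. Alas2 (ENSMUSG00000025270) lies on the plus strand at chrX:150547375-150570638. All 5 are annotated as protein-coding, and counts are sums over their exons. No other annotated gene overlapped the 4 globin genes. Alas2 was overlapped on the opposite strand by Apex2 and Mir3620, with at most 257 counts on either in a library. The strand setting of the counting was not found in the labels or methods.

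The copies within each pair are so alike that reads of 50 bases can often not be placed, and the following coding stretches are shown because they hold the only coding base that sets each pair apart. The coding sequences of Hba-a1 and Hba-a2 differed at 1 of 426 bases (C381T, Hba-a1 base first, counted from the A of the start codon), and those of Hbb-bs and Hbb-bt at 1 of 441 bases (C417T, Hbb-bs base first). Coding bases 351 to 410 of the alpha genes and 382 to 441 of the beta genes, from the GENCODE transcripts, are given with the differing base in capitals.
Hba-a1: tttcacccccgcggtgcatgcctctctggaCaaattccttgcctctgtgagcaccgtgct
Hba-a2: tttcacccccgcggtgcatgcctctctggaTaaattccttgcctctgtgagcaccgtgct
Hbb-bs: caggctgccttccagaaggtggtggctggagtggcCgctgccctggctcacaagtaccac
Hbb-bt: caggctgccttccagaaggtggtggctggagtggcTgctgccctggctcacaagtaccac
Of the 50-base windows along the main transcript, 211 of 650 (32.5%) occurred in Hba-a1 transcripts alone and 66 of 505 (13.1%) in Hba-a2 transcripts alone, with 439 windows common to both. For Hbb-bs the figure was 198 of 579 (34.2%) and for Hbb-bt 273 of 654 (41.7%), with 381 windows in common, while all 1988 windows of Alas2 were unique. How reads that fit both copies were treated was not found in the labels or methods. The split of reads within a pair is uncertain, and the sums of the pairs are less so.

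The regions upstream of the start sites are shown because the 5 transcripts moved together across mice, as described further on. The windows are the 120 bases before the RefSeq start (GRCm38.p6), at chr11:32296372-32296491 on the plus strand for Hba-a2, chr7:103827929-103828048 on the minus strand for Hbb-bs, chr7:103813924-103814043 on the minus strand for Hbb-bt and chrX:150547297-150547416 on the plus strand for Alas2. The GENCODE gene spans given above begin farther upstream than these RefSeq starts. The Hbb-bs window therefore lies within its gene span, and the windows of Hba-a2, Hbb-bt and Alas2 overlap theirs in part. Capitals mark the motif CACCC, the CCAAT box, the letters TATAA of a TATA box and the GATA motif GATAA, each searched on both strands, and no match overlapped another.
Hba-a2: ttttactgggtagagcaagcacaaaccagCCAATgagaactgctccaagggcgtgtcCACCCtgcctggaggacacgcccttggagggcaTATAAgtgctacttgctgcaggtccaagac
Hbb-bs: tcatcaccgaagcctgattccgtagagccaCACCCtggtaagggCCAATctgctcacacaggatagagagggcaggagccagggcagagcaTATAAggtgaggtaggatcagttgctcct
Hbb-bt: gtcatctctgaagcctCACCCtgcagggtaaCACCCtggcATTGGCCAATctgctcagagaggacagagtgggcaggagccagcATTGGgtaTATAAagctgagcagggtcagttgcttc
Alas2: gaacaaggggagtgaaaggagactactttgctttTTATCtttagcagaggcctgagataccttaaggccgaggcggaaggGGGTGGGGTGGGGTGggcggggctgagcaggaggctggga
The window of Hba-a1 is not repeated, since its upstream sequence matched that of Hba-a2 at 247 of 247 bases compared, at an offset of 3 bases. Hbb-bs and Hbb-bt matched at 127 of 249 bases (51.0%) at a fixed offset of 1 base. Both comparisons reached beyond the 120 bases of the windows described here. The 51.0% is therefore no measure of how alike the shown windows of Hbb-bs and Hbb-bt are, which was not counted separately. CACCC, the letters bound by the erythroid factor Klf1, were found in all 5 windows, and CCAAT and TATAA in the 4 globin windows. GATAA, the letters bound by GATA factors, was found in Alas2 alone among the 5. Of 32851 promoter windows of the same length, 31.7% held the first motif (CACCC), 21.3% the CCAAT box, 11.8% the TATAA letters and 10.5% the GATA motif. A match of letters is a description of the sequence and not of binding.

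The libraries held 20369746 to 32734485 gene counts. Between 23.6% and 28.8% of counts were on mitochondrial genes. Tributyrin 1 was the mouse with the most reads for each of the 5 transcripts, and results are given with and without it for these genes, and so is the median likeness of the gene lists where it is given. In the comparison of treatments, 0 of 14133 genes tested passed an FDR of 10% (edgeR's quasi-likelihood test, 600 genes or 4.25% at an unadjusted p under 0.05), while DESeq2 called 11 of 13179 (0.0835%) and limma-voom 0. Markers of atrial muscle varied among the mice, summing to 53.8 to 182 CPM (reads scaled to a common library total) in vehicle and 31.01 to 64.3 CPM in tributyrin mice, and their part in the results below was not tested.

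Together the 4 globin genes took a small and variable part of each library. Their share of all gene counts was 0.0533% in vehicle 1 (95% Wilson interval 0.0524 to 0.0542), 0.0495% in vehicle 2 (0.0487 to 0.0503) and 0.0704% in vehicle 3 (0.0692 to 0.0715). In the tributyrin mice it was 0.0899% in mouse 1 (0.0888 to 0.0910), 0.0372% in mouse 2 (0.0365 to 0.0379) and 0.0463% in mouse 3 (0.0454 to 0.0472). These intervals cover counting error only, and none overlapped another, so the mice differed by more than counting error, by up to 2.42-fold. The highest and the lowest share were both in tributyrin mice. The mean share of the vehicle mice was 0.0577% ± 0.0111 (SD, n = 3). That of the tributyrin mice was 0.0578% ± 0.0281 (SD, n = 3), or 0.0417% ± 0.00643 (SD, n = 2) once mouse 1 was left out.

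The alpha globin transcripts were read at similar mean levels in both treatments. Hba-a1 had normalised read counts of 2908, 2821 and 3792 in the 3 vehicle mice and 4832, 2078 and 2440 in the 3 tributyrin mice. The tributyrin mice lay on both sides of the vehicle mice, with mouse 1 above all of them and mice 2 and 3 below. The means were 3174 ± 537 and 3116 ± 1496 (SD, n = 3 each), and the log2 fold change of tributyrin over vehicle was -0.02 (SE 0.261, adjusted p = 0.999, edgeR). Hba-a2, the neighbouring copy, had 1801, 1893 and 2505 normalised reads with vehicle and 2969, 1366 and 1764 with tributyrin. Its order among the mice was alike at both ends, with tributyrin 1 highest and tributyrin 2 lowest. The means were 2066 ± 382 and 2033 ± 835 (SD, n = 3 each), with a log2 fold change of -0.02 (SE 0.237, adjusted p = 0.999, edgeR).

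The beta globin transcripts showed the same picture. Hbb-bs, the most abundant of the 5, had 8085, 6762 and 9977 normalised reads in the vehicle mice and 14095 in tributyrin 1, 5416 in tributyrin 2 and 7664 in tributyrin 3. The groups overlapped, with tributyrin 3 inside the range of the vehicle mice. Means were 8275 ± 1616 and 9059 ± 4505 (SD, n = 3 each) and the log2 fold change was 0.13 (SE 0.280, adjusted p = 0.999, edgeR). Hbb-bt had 1217, 1086 and 1536 normalised reads with vehicle and 2179, 898 and 1053 with tributyrin. Here tributyrin 2 and 3 lay below all vehicle mice and tributyrin 1 above them. The means of Hbb-bt were 1279 ± 231 and 1377 ± 699 (SD, n = 3 each), and its log2 fold change was 0.11 (SE 0.277, adjusted p = 0.999, edgeR).

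Alas2, which has no near copy, had 323, 344 and 476 normalised reads in the vehicle mice and 655, 281 and 312 in the tributyrin mice. As for Hbb-bt, tributyrin 1 lay above the vehicle mice and the other 2 tributyrin mice below them. The means were 381 ± 82.7 and 416 ± 208 (SD, n = 3 each), with a log2 fold change of 0.14 (SE 0.285, adjusted p = 0.999, edgeR). Its raw counts were 272 to 701 in a library, and a contribution of Apex2 or Mir3620 reads from the opposite strand was not tested.

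**Figure D1:**
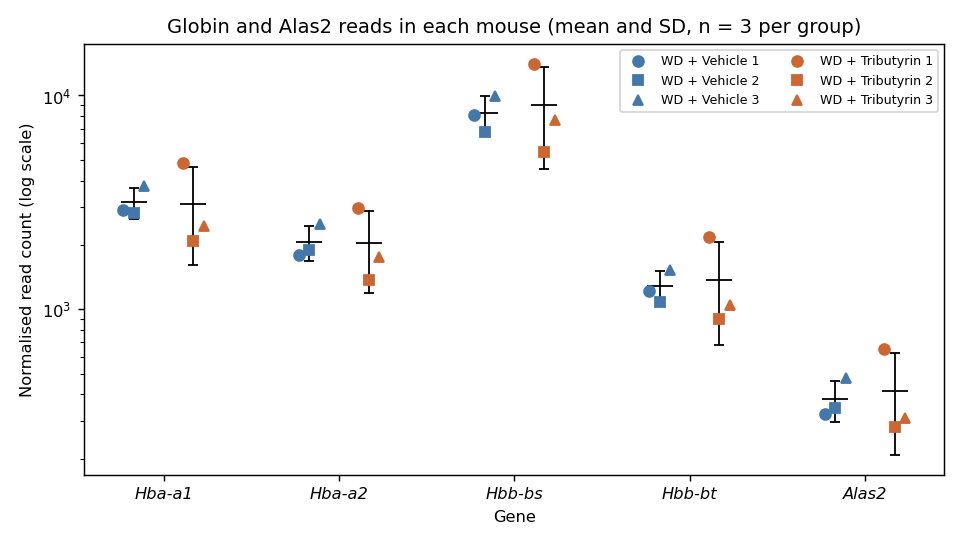
Normalised read counts (log scale) of the 4 globin genes and Alas2 in each of the 6 mice, in blue for WD + Vehicle and orange for WD + Tributyrin, with black bars for the mean and SD of 3 mice. For every gene tributyrin 1 (orange circle) is the highest point and tributyrin 2 (orange square) the lowest.

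Of the 5 transcripts 3 had a log2 fold change above 0, beside 49.6% of all genes tested. None of the 5 passed the test at an FDR of 10% or 5%, where 0% of all genes tested passed, and none of the 5 had groups that did not overlap, against 8.91% of all genes tested. The two-sided exact permutation p was 0.9 or 1 for each gene, and 0.1 is the smallest that 3 against 3 mice allows. The 95% intervals of the fold change ran from 0.658 to 1.47 for Hba-a1, 0.685 to 1.42 for Hba-a2, 0.712 to 1.69 for Hbb-bs, 0.705 to 1.65 for Hbb-bt and 0.709 to 1.71 for Alas2. With 3 mice a group, fold differences inside these intervals remained compatible with the data. With the copies summed, the log2 fold change was -0.02 (SE 0.250) for alpha globin and 0.13 (SE 0.279) for beta globin.

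The estimates depended on single mice, and leaving out tributyrin 1 moved them most. The alpha globin estimates changed sign when vehicle 3, tributyrin 2 or tributyrin 3 was left out, as given further below. Tributyrin 1 held 1.90 to 2.23 times the mean of the other 2 tributyrin mice for the 5 genes, and 1.19 to 1.42 times the highest of all other mice. Without it, 0 of 5 log2 fold changes were above 0, beside 51.5% of all genes tested. They were -0.48 (SE 0.134) for Hba-a1, -0.39 (SE 0.151) for Hba-a2, -0.33 (SE 0.170) for Hbb-bs, -0.38 (SE 0.141) for Hbb-bt and -0.35 (SE 0.167) for Alas2. Adjusted p-values of this edgeR fit were between 0.963 and 1.00, so none of the 5 passed there either, where 0.014% of all genes tested passed. The unadjusted p was 0.00407 for Hba-a1, 0.0244 for Hba-a2, 0.0758 for Hbb-bs, 0.0203 for Hbb-bt and 0.0589 for Alas2 in the same edgeR fit, in which 3.74% of all genes tested were under 0.05. In that smaller set the 2 tributyrin mice lay below all 3 vehicle mice for 4 of the 5 genes, Hbb-bs being the exception, beside 8.7% of all genes tested. Leaving out this mouse was chosen because it stood apart in these transcripts, and since the 5 genes moved together across mice they do not give 5 separate answers.

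**Figure D2:**
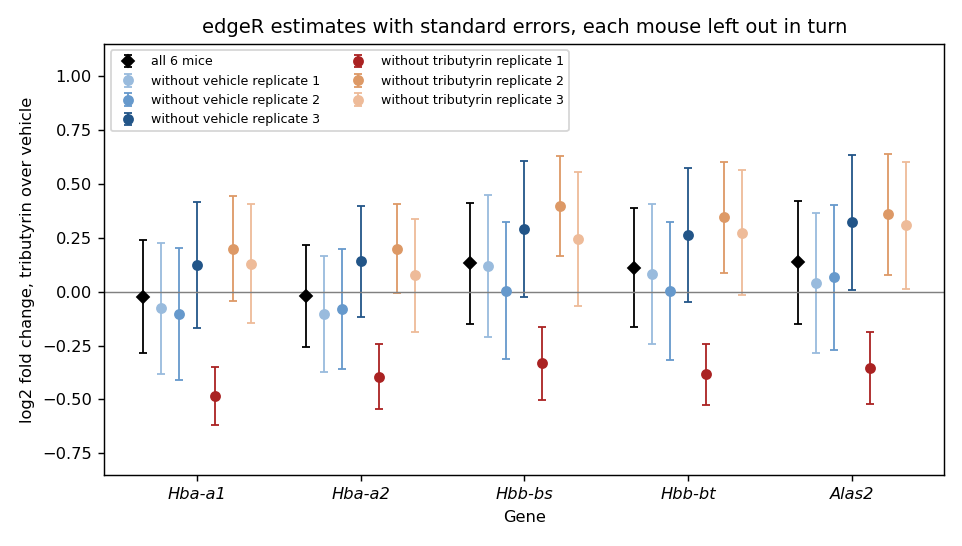
Log2 fold changes of tributyrin over vehicle with standard errors (edgeR) for each gene, from all 6 mice (black diamonds) and from the 5 mice that remain when 1 is left out (circles). The estimates lie near 0 with all mice, between -0.02 and 0.14, and only those without tributyrin 1 (dark red) are below 0 for all 5 genes, between -0.48 and -0.33.

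The spread among mice was wide for genes of this depth. The SD of the log2 level over the 6 mice was 0.438 for Hba-a1, 0.396 for Hba-a2, 0.476 for Hbb-bs, 0.456 for Hbb-bt and 0.449 for Alas2, against a median of 0.144 over all genes tested. Between 96.1% and 98.5% of all genes tested had a smaller SD than these 5. Among the 6669 genes tested with at least the mean count of Alas2, the median SD was 0.102, and 98.8% to 99.4% had a smaller SD. The coefficient of variation was 16.9% to 21.7% among vehicle mice and 41.1% to 50.8% among tributyrin mice. Counting error alone gives the reads of a single mouse a relative SD of 1.30% for Hbb-bs and 6.06% for Alas2. In the edgeR fit the biological coefficient of variation was 20.5% to 24.3% for the 5 genes, where the trend at their level was 9.09% to 10.97%.

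The 5 transcripts moved together over the single mice. On the scale of log2(CPM + 0.5), tributyrin 1 lay 0.58 to 0.77 above the mean of the 6 mice and tributyrin 2 lay between -0.60 and -0.42 for the 5 genes. Vehicle 3 was the second highest mouse for each gene, at 0.27 to 0.33, and the other 3 mice lay between -0.31 and -0.03 in an order that varied with the gene. Pearson's r of the 10 pairs of genes ran from 0.943 (Hbb-bs with Alas2) to 0.985 (Hba-a1 with Hbb-bt) with a median of 0.970, and the exact permutation p was 0.00139 to 0.00694, or 0.00521 to 0.00694 after Benjamini-Hochberg adjustment over the 10 pairs. Spearman's rho ran from 0.829 to 1 with an exact permutation p of 0.00278 to 0.0583, adjusted 0.0139 to 0.0583, and the 2 pairs of Hbb-bs with Hba-a2 and with Alas2 did not pass 0.05. Without the 2 mice farthest from the median, r was still 0.765 to 0.965. Without tributyrin 1 it was 0.839 to 0.980, and r of the deviations from the group means was 0.943 to 0.997. A single component held 97.5% of the variance of the 5 log2 levels. The pairs share libraries and, within alpha and within beta globin, sequence. For pairs that cross chromosomes, alpha and beta globin gave 0.959 to 0.985, and Alas2 with the globins 0.943 to 0.980.

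**Figure D3:**
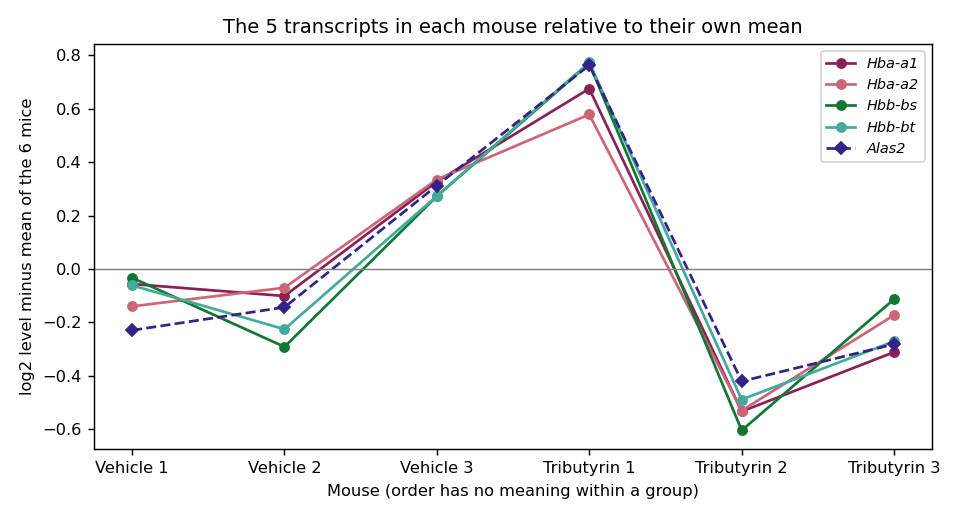
Log2(CPM + 0.5) of each transcript in each mouse minus that transcript's mean over the 6 mice, with lines joining the points of 1 transcript for tracing only. All 5 transcripts peak in tributyrin 1, at 0.58 to 0.77, and are lowest in tributyrin 2, at -0.60 to -0.42.

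The ratios between the transcripts varied far less than their levels. Alpha globin reads split between Hba-a1 and Hba-a2 at ratios of 1.61, 1.49 and 1.51 in the vehicle mice and 1.63, 1.52 and 1.38 in the tributyrin mice. Beta globin reads split between Hbb-bs and Hbb-bt at 6.64, 6.23 and 6.50 with vehicle and 6.47, 6.03 and 7.28 with tributyrin. Highest over lowest, these ratios differed by 1.18-fold and 1.21-fold, where the globin levels themselves differed by 2.17-fold to 2.60-fold. The ratio of beta to alpha globin reads was 1.98, 1.66 and 1.83 in the vehicle mice and 2.09, 1.83 and 2.07 in the tributyrin mice. The groups overlapped, with means of 1.82 ± 0.155 and 2.00 ± 0.142 (SD, n = 3 each) and a two-sided exact permutation p of 0.2. Alas2 reads per 1000 globin reads were 23.1, 27.4 and 26.7 with vehicle and 27.2, 28.7 and 24.1 with tributyrin, again overlapping, with an exact permutation p of 0.6. Tributyrin 1 was inside the range of the other mice for Alas2 per globin and for Hbb-bs over Hbb-bt, and at the top for beta over alpha and for Hba-a1 over Hba-a2.

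Counting error did not account for all of the remaining differences. Across the 6 libraries, chi-square divided by its degrees of freedom was 29.2 for the alpha sum against the beta sum, 4.15 for Hba-a1 against Hba-a2, 3.55 for Hbb-bs against Hbb-bt and 2.23 for Alas2 against the globin sum, where counting error alone gives about 1. For the globin sum against all other reads it was 1775. Reads without molecular identifiers are not independent molecules, so these values describe the libraries and carry no p.

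Per kilobase of exon, Hbb-bs was the highest of the 5 at 410 ± 80.5 CPM per kb with vehicle and 448 ± 223 with tributyrin (SD, n = 3 each), place 75 among 14133 genes tested by the mean over mice. Hba-a1 followed at 149 ± 25.3 and 146 ± 70.1 CPM per kb, Hba-a2 at 118 ± 21.9 and 116 ± 47.6, Hbb-bt at 69.2 ± 12.6 and 74.5 ± 37.8, and Alas2 at 6.03 ± 1.32 and 6.58 ± 3.29. Before scaling to length, the ratio of Hba-a1 to Hba-a2 reads was 1.38 to 1.63 over the mice. The order of the 2 genes depends on how reads common to both copies were counted. Per 1000 unique 50-base windows the vehicle levels were 572 CPM for Hba-a1 and 1190 CPM for Hba-a2.

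Other genes of the globin family were at or near 0 counts, apart from Mb and Cygb. Hba-x, Hbb-y, Hbb-bh0, Hbb-bh1, Hbb-bh2 and Hbb-bh3 had 0 counts in every library. Hbq1a had 3 counts and Hbq1b 1 in all, and Ngb, the neuronal globin, had 9 and Adgb 8. Mb, the oxygen-binding myoglobin of muscle, averaged 5696 CPM, with a log2 fold change of 0.16 (SE 0.078). Its r with the mean log2 level of the 4 globins was 0.142, or -0.479 without tributyrin 1. Cygb, the cytoglobin of fibroblast-like cells, averaged 62.5 CPM, with a log2 fold change of -0.22 (SE 0.083). Its r was -0.152, or 0.693 without tributyrin 1, so both signs turned on that mouse.

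Haem synthesis begins with Alas1 or Alas2 and ends with Fech, which inserts the iron, with enzymes such as Alad, Uros, Urod, Cpox and Ppox between them. The 8 enzymes other than Alas2 were spread around no difference between treatments, 4 higher and 4 lower with tributyrin, 0 called, with a median log2 fold change of -0.00 beside -0.00 over all genes tested. Alas1, the housekeeping form of the first enzyme, averaged 253 CPM against 15.1 CPM for Alas2, with a log2 fold change of -0.08 (SE 0.104). In tributyrin 1 Alas1 stood at 0.961 times the mean of the other 5 mice and Alas2 at 1.89 times. Ppox had the largest estimate of the 8, 0.15 (SE 0.101), and Alas1 the lowest. Ppox was the only 1 of the 8 whose groups did not overlap, beside 8.91% of all genes tested. The r with the globin mean was 0.303 for Alas1, -0.883 for Alad, 0.696 for Uros, 0.052 for Urod, -0.164 for Cpox, -0.114 for Ppox and 0.577 for Fech, and 0.976 for Alas2. The median r of the 8 was 0.087, or -0.165 without tributyrin 1.

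Genes that move, store or break down haem and iron were read from fixed lists. Of 11 genes of haem and mitochondrial iron transport, 6 were higher and 5 lower with tributyrin, 0 called, with a median of 0.01 on the log2 scale and a median r of 0.325 with the globin mean, or 0.009 without tributyrin 1. Among its most abundant genes, Tmem14c, Slc48a1 and Abcb10 had log2 fold changes from -0.06 to 0.13. Among 11 iron handling genes 8 were tested, 2 higher and 6 lower, 0 called, with a median of -0.02, and Fth1, the ferritin heavy chain, averaged 1360 CPM with an estimate of 0.15 (SE 0.070). Tfrc, the transferrin receptor, averaged 115 CPM with an estimate of -0.27 (SE 0.181), and the other 2 of its 4 most abundant genes, Steap3 and Ireb2, had -0.05 and -0.03. The list's median r was -0.080, or -0.342 without tributyrin 1. Of the 8 genes of haem breakdown and haemoglobin clearance 7 were tested, 3 higher and 4 lower, 0 called, with a median of -0.01 and a median r of -0.578 with the globin mean, or 0.053 without tributyrin 1. Its 4 most abundant genes went both ways. Hmox2, the constitutive haem oxygenase, had an r of 0.685 (0.510 without tributyrin 1), Blvra, a biliverdin reductase, 0.780 (0.816), and Lrp1, a scavenger receptor that also takes up haem bound to haemopexin, -0.582 (0.053). Cd163, the macrophage receptor that takes up haemoglobin bound to haptoglobin, had an r of -0.888 with the globin mean or -0.677 without tributyrin 1, and stood in that mouse at 0.595 times the mean of the others.

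Genes of the red cell membrane and of erythroid maturation gave a mixed picture. Of 35 genes listed, 34 were matched to a row, 3 were at 0 (Rhag, Kel and Car1) and 24 were tested, 16 higher and 8 lower with tributyrin, 0 called. The median log2 fold change was 0.03, and -0.04 with scaling to library size alone. The 4 most abundant genes of the list, Ank1, Prdx2, Sptb and Epb41, are also used by other cells, at 144 to 303 CPM, and had r between -0.690 and 0.344 with the globin mean. An r over 0.8 was reached by 5 of the 24, where 2.15% of all genes tested reached it. Among them were Tspan33 (r = 0.890), Slc4a1 (0.885), Tent5c (0.863) and Bpgm (0.830). Without tributyrin 1 the list's median r went from 0.414 to 0.140, and 2 of the 24 had an r over 0.8, Tspan33 (0.941) and Tent5c (0.846), where 3.68% of all genes tested did. Slc4a1 then had 0.716 and Bpgm 0.453. These 4 were named after their values were seen, and r over 6 mice is a description that carries no p.

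The transcripts most particular to red cells were at the limit of detection, and the following ones were likewise picked after their values were seen. Slc4a1, the band 3 anion exchanger of the red cell membrane, had 7, 14 and 8 raw counts in the vehicle mice and 37, 5 and 5 in the tributyrin mice. It was highest in tributyrin 1, at 4.51 times the mean of the other 5 mice. Epb42 had 4 counts in all, Trim58 2 and Hemgn 1. Among 12 erythroid transcription factors and receptors 8 were tested, 1 higher and 7 lower with tributyrin, 0 called, with a median of -0.15. Gata1, the GATA factor of red cell precursors and megakaryocytes, had 8 counts in all, of which 6 were in tributyrin 1, and the groups overlapped. Klf1, the erythroid factor of the CACCC motif, had 0, 1 and 0 counts with vehicle and 3, 4 and 5 with tributyrin, and Nfe2, a factor of red cell precursors and megakaryocytes, had 1, 1 and 1 with vehicle and 8, 7 and 3 with tributyrin. In both the groups did not overlap, but neither gene had enough counts to be tested. The share of 8.91% holds for all genes tested and does not cover genes of so few counts. Klf1 was highest in tributyrin 3 where the globins were highest in tributyrin 1. Of the 8 tested genes only Zfpm1 had groups that did not overlap. It was lower with tributyrin, at a log2 fold change of -0.26 (SE 0.084). Median r of the 8 tested genes with the globin mean was -0.148, or 0.541 without tributyrin 1.

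Markers of other blood cells were compared because blood carries them along with red cells. Platelet genes summed to 14.7 to 19.6 CPM in vehicle and 12.7 to 21.4 CPM in tributyrin mice, and their highest mouse was tributyrin 2, the mouse with the least globin. Of the 13 genes 8 were tested, 7 higher and 1 lower, 0 called, and Gp1bb was at 0. Neutrophil genes summed to 6.52 to 10.7 CPM and 9.16 to 10.8 CPM, with 3 of 12 tested, 1 higher and 2 lower, and the defining markers Ly6g, Camp and Stfa2l1 at 0. Lcn2, which cells other than neutrophils also express, gave 5.91 CPM of that sum. B cell genes summed to 7.27 to 10.4 CPM with vehicle and 8.39 to 8.99 CPM with tributyrin (4 of 10 tested, 3 higher and 1 lower), and T and NK cell genes to 0.946 to 1.86 CPM and 1.22 to 2.45 CPM (1 of 12 tested, higher), the top value being in tributyrin 1 at 1.79 times the mean of the other mice. Blood monocyte genes summed to 124 to 129 CPM and 110 to 167 CPM (6 of 10 tested, 2 higher and 4 lower). The top value was in tributyrin 1 and rested on Nr4a1, an immediate early gene of many cell types. Nr4a1 averaged 29.5 CPM and stood in that mouse at 4.04 times the mean of the other mice. Ace and F13a1, which averaged 57.3 and 38.2 CPM, stood there at 0.739 and 1.06 times. The defining monocyte marker Ly6c2 had 2 or 3 counts in each library. Median r with the globin mean was 0.166 for the platelet genes, -0.175 for neutrophil, 0.124 for B cell and 0.114 for monocyte genes. Without tributyrin 1 these medians were -0.154, -0.325, 0.075 and 0.355. The name residual blood for the source of the globin reads rests on the globins, Alas2 and a few low red cell transcripts, and the source itself was not tested.

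Markers of the heart itself gave the tissue label its check. Ventricular cardiomyocyte genes summed to 62009 to 63843 CPM in vehicle and 58796 to 64315 CPM in tributyrin mice, lowest in tributyrin 1 (10 of 10 tested, 6 higher and 4 lower). Endothelial genes summed to 1296 to 1402 CPM and 1290 to 1528 CPM (10 of 10 tested, 6 higher and 4 lower), with a median r of -0.257 with the globin mean, or -0.368 without tributyrin 1. Atrial genes stood at 0.299 times the mean of the other mice in tributyrin 1, had a median r of -0.450 with the globin mean (-0.272 without that mouse), and 5 of 5 tested were lower with tributyrin, 0 called, with a median of -1.94. Their part in the globin values was not tested.

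**Figure D4:**
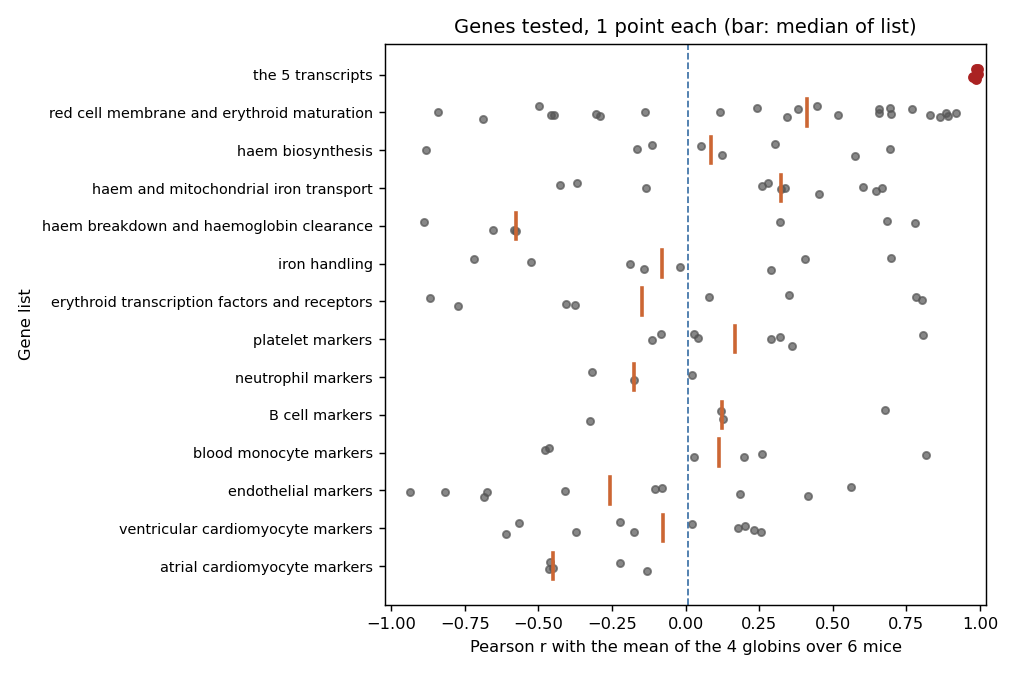
Pearson's r of each tested gene with the mean log2 level of the 4 globins over the 6 mice, by gene list, with an orange bar for the median of a list and a dashed line for the median of all genes tested (0.01). The globins are part of that mean, and Alas2, which is not, lies beside them at 0.976, while the other lists have medians between -0.578 and 0.414.

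The likeness of single genes to the globin pattern was ranked over all genes tested, with the globin family left out. Alas2 held place 5, with an r of 0.976, and 0.940 without tributyrin 1. The 8 other genes with the highest r were Zfp821 (0.998), Zfp580 (0.987), Ppp2r5c (0.987), Cbx8 (0.978), C230035I16Rik (0.973), Fn3k (0.972), Sfxn5 (0.970) and Haus2 (0.970), and the 4 with the lowest were Gm11914 (-0.975), Ess2 (-0.975), Selenbp2 (-0.974) and Bcl2 (-0.973). Their amplitude differed from that of the globins. The SD of the log2 level over the mice was 0.048 to 0.239 for the 8 genes, against 0.396 to 0.476 for the 5 transcripts. Over 6 mice, 304 of the 14133 genes (2.15%) had an r over 0.8 and 76 (0.538%) over 0.9, so a high r alone sets few genes apart from the many that were ranked.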

How the data were processed

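The values were raw counts per gene in 6 deposited tables, 1 per heart. The authors made stranded mRNA libraries from RNA with RIN above 7, read them as 50-base single ends, trimmed with cutadapt 1.13, aligned with STAR to mm10 and counted with HTSeq 0.6.1p1, per the labels and the study's methods, which also name DESeq2 1.14.1. No rows lacked a gene, and 54165 of 54232 gene IDs matched GENCODE M21. No 2 libraries agreed within sampling noise (chi-square per degree of freedom at least 7.40). Each library was taken as 1 mouse, as the study states for its groups of 3.

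Genes were filtered with filterByExpr (count of 10, total of 15) and fitted whole with edgeR 4.0.16 (quasi-likelihood test, TMM scaling, Benjamini-Hochberg, no covariates) in R 4.3.3. DESeq2 1.42.0 and limma-voom (limma 3.58.1) were alternatives. Normalised read counts are counts divided by DESeq2 size factors, and CPM uses TMM scaling. Correlations used log2(CPM + 0.5). Permutation tests were exact and two-sided. Scripts were tested on simulated data, where the known fold changes were recovered but the share of false calls was above the nominal FDR.

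The 5 genes and all gene lists were chosen with earlier results of these data known, so they are no independent support. Named genes are the 5, detected globin family and haem synthesis genes, the 4 most abundant genes of other lists, the 8 highest and 4 lowest in likeness, and defining cell markers at or near 0; others are said to be picked after their values were seen.

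Same-numbered mice were not taken as pairs. Some genes of the lists are not reported here.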

Additional observations from a re-analysis of the deposited data

How the results depend on the processing

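None of the 5 transcripts was called in any of the 15 alternatives (DESeq2, limma-voom, other scalings and filters, the replicate block, copies summed and each mouse left out), with adjusted p between 0.619 and 1.00. Over the settings that kept all mice, log2 fold changes kept their sign but not their size, at -0.11 to -0.02 for Hba-a1, -0.10 to -0.02 for Hba-a2, 0.03 to 0.14 for Hbb-bs, 0.01 to 0.13 for Hbb-bt and 0.05 to 0.14 for Alas2; with the replicate block they were -0.11, -0.08, 0.03, 0.01 and 0.05. Leaving out 1 mouse moved them from -0.48 to 0.20 for Hba-a1, -0.39 to 0.20 for Hba-a2, -0.33 to 0.40 for Hbb-bs, -0.38 to 0.34 for Hbb-bt and -0.35 to 0.36 for Alas2. Without vehicle 3, tributyrin 2 or tributyrin 3 the estimates became positive for Hba-a1 (0.12, 0.20 and 0.13) and Hba-a2 (0.14, 0.20 and 0.08), and without tributyrin 1 they became negative for Hbb-bs (-0.33), Hbb-bt (-0.38) and Alas2 (-0.35). The count of genes called at an FDR of 10%, 0 in the reported fit, was 167 without a filter on low counts, 11 with DESeq2, 2 with the replicate block and 0 to 3 with 1 mouse left out. The cause was not tested.

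Same-numbered mice deviated together at r of 0.21, 0.04 and 0.01, so the labels' numbers were not taken as pairs. The median correlation of the 10 pairs, 0.970 as reported, was 0.943 with Spearman's rho and 0.949 to 0.979 with 1 mouse left out, lowest without tributyrin 1. The difference in globin share, tributyrin minus vehicle, was -0.0160 to 0.0104 percentage points with 1 mouse left out, and -0.00964 without tributyrin 1 and vehicle 3, an alternative chosen after seeing the data. The red cell list's median stayed at 0.01 to 0.10 with 1 mouse left out. With 3 mice a group, fold differences inside the intervals given above remained compatible with the data.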
